A study of Homo sapiens with 9 samples.

Results

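Short isolated intervals are the listed stretches of an autosome whose end minus start lies between 300 and 1000 bases and that overlap no other listed interval. The histone-rich stretch of chromosome 6 from 26 to 28 Mb and the windows on chromosome 1 from 149783000 to 149860000 and from 228612000 to 228652000 were left out. Of 4853 such intervals, 668 had a value above 0 in 3 or more of the 9 libraries, and these are the ones described; the whole series lists 55527 distinct intervals. MDA-MB-231, a human triple-negative breast cancer line, carried a lentiviral scrambled hairpin (shScr), the hairpin shCTDP1-#1 or the hairpin shCTDP1-#2, with 3 libraries each, and all cells had been infected and then selected with puromycin. Values are TPM, a transcript abundance divided by transcript length and scaled to the same total in each library, on the hg19 build. The files pair no interval with a gene name and give no strand, so the level of CTDP1, the markers of the cell line and the names of the intervals were not analysed here, and intervals are given by position. Whether a group's libraries were grown as separate cultures is not given, so each p-value speaks to library spread alone, and that spread may be technical.

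The product of CTDP1, FCP1, dephosphorylates the repeated tail of RNA polymerase II, the enzyme that transcribes mRNA genes and many noncoding RNA genes, so that the polymerase can be used again. In human gene annotations, short spans that stand alone are commonly processed pseudogenes (intronless copies of mRNAs), small single-exon genes, and noncoding RNAs that are short or known only in part. RSEM, the tool named in the submitters' processing notes, divides reads by an effective length that is shorter than the transcript, so in a short interval a small number of reads makes a large step in TPM.

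Most short isolated intervals were silent or nearly so. Of the 4853, 3612 (74.4%) were at 0 TPM in all 9 libraries, 392 were above 0 in 1 library and 181 in 2. The 181 just outside the limit of 3 libraries had a median of 0.0689 TPM over the 9 libraries, and the 87 members just inside it 0.107 TPM. Among the 668 members, 226 were above 0 in all 9 libraries. The members' mean over the 9 libraries ran from 0.0389 to 2606 TPM with a median of 0.451 TPM; 461 had a mean under 1 TPM and 73 a mean of 5 TPM or more. Every autosome held members, from 7 on chromosome 15 to 74 on chromosome 1. Relative to the short isolated intervals listed there, members were most frequent on chromosome 19, with 34 of 155, and least frequent on chromosome 15, with 7 of 97.

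The knockdown libraries had values above 0 at more of the members. The shScr libraries had 443, 435 and 420 members above 0, the shCTDP1-#1 libraries 509, 471 and 531, and the shCTDP1-#2 libraries 529, 494 and 517. Even the lowest knockdown library exceeded the highest control. The means were 432.7 ± 11.7 (SD, n = 3), 503.7 ± 30.4 and 513.3 ± 17.8, so 16.4% and 18.6% more members were above 0 with shCTDP1-#1 and shCTDP1-#2 than with shScr. At 1 TPM or more the shScr libraries had 166 to 179 members, the shCTDP1-#1 libraries 201 to 226 and the shCTDP1-#2 libraries 233 to 242. At 0 in all 3 libraries of a group were 96 members with shScr, 28 with shCTDP1-#1 and 28 with shCTDP1-#2. The rule itself bears on this, since 6 of the 9 libraries it counts are knockdown libraries. TPM keeps no read total, so sequencing depth is unknown here, and its part in these counts was not tested. In bulk RNA, fewer cells with a transcript and less of it per cell cannot be told apart.

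Isolated autosomal intervals of 5 to 30 kb served as a comparison. Each member was paired with the unused longer interval nearest to it in mean TPM over the 9 libraries; the pairs differed by a median of 0.0021 on the log2 scale. The paired longer intervals numbered 497 to 519 above 0 in the shScr libraries, 608 to 622 with shCTDP1-#1 and 593 to 601 with shCTDP1-#2, which is 20.8% and 17.4% more than with shScr. At 1 TPM or more, 26.2% and 24.7% more of the longer intervals were found with shCTDP1-#1 and shCTDP1-#2, against 27.0% and 38.3% more of the members. Among these pairs the relative gain was thus close in both length classes, except at 1 TPM with shCTDP1-#2. Without the rule and the matching in level, the means above 0 were 484.7, 599 and 617.3 of the 4853 short intervals. Of all 5172 isolated intervals of 5 to 30 kb they were 2454, 2888 and 2784, a smaller relative gain. These differences were not tested. Short intervals were more often at 0 at the same mean: 27.7% of their values were 0, against 14.2% in the longer intervals.

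**Figure D1:**
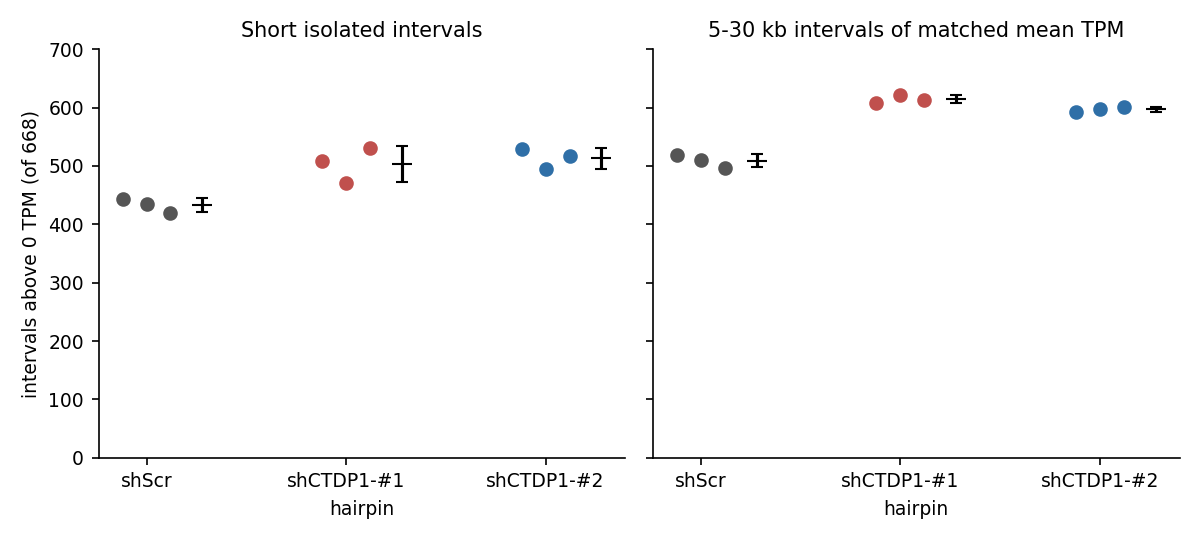
Number of intervals above 0 TPM in each library, for the 668 short isolated intervals (left) and the 668 intervals of 5 to 30 kb paired with them in mean TPM (right). Points are libraries, and bars give the mean ± SD of 3 libraries. In both panels all 6 knockdown libraries lie above all 3 shScr libraries.

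The spread between libraries was also wider in the short intervals. The test took intervals that reached 1 TPM in 3 or more libraries, which 252 of the 668 members did; the other 416 are described by detection alone. Among the 252, the median SD within groups was 0.33 on the log2(TPM + 1) scale, against 0.17 in the 252 tested longer intervals paired with them. In 217 of the 252 pairs the short interval had the larger SD. Values also differed with length among the members. The median of the lowest value above 0 was 0.44 TPM in the 190 members of 302 to 500 bases, 0.26 TPM in the 225 of 501 to 700 bases and 0.16 TPM in the 253 of 701 to 999 bases. The median SD of the tested ones was 0.40, 0.32 and 0.26 in the same order.

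**Figure D2:**
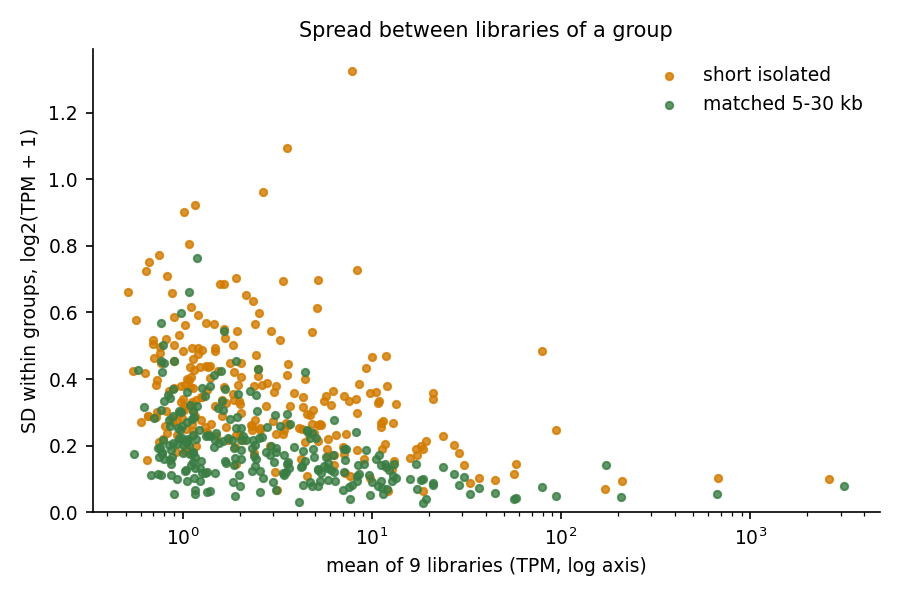
SD within groups of log2(TPM + 1) against the mean of the 9 libraries (log axis) for the 252 tested short isolated intervals and the 252 paired intervals of 5 to 30 kb. Each point is 1 interval; the short intervals have a median SD of 0.33 and the longer ones of 0.17.

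With shCTDP1-#1, 70 of the 252 tested members rose against shScr and 17 fell (limma on log2(TPM + 1), adjusted p under 0.05 over all 15011 tested intervals). That is 34.5% of them, where 63.1% of all tested intervals were called, 35.4% higher and 27.7% lower. The members thus had a share of higher calls of 27.8%, below that of all intervals, and a share of lower calls of 6.75%. The median log2 change was 0.22 over the tested members, 0.14 over the paired longer intervals and 0.07 over all tested intervals. The paired longer intervals had 93 higher and 46 lower calls. The rise was 1 or more on the log2 scale in 40 of the 70, and the fall in 3 of the 17. In the paired longer intervals these were 35 of 93 and 7 of 46, and in all tested intervals 1084 of 5314 and 630 of 4161. Out of all 15011 tested intervals, called or not, the last counts are 7.22% and 4.2%.

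With shCTDP1-#2, 80 of the 252 rose and 18 fell, 38.9% in all, where 64.0% of all tested intervals were called, 39.5% higher and 24.6% lower. The median log2 change was 0.30 over the tested members, 0.21 over the paired longer intervals and 0.13 over all tested intervals. After median-of-ratios scaling, which lowers the median of all intervals by 0.12, the medians were 0.21, 0.14 and 0.01. The paired longer intervals had 100 higher and 41 lower calls. Both comparisons share the 3 shScr libraries. In both of them 46 members rose and 9 fell, 18.3% and 3.57% of the 252, where 26.4% and 16.5% of all tested intervals did; no member was called in opposite directions, as 5.43% of all tested intervals and 5 of the 252 paired longer intervals were.

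The filter itself bears on this tilt towards higher values. Of the 252 tested members, 59 had no shScr library at 1 TPM and so passed only through the knockdown libraries, while 0 had no knockdown library at 1 TPM. Among the 107 members with at least 1 TPM in all 9 libraries, 25 rose and 12 fell with shCTDP1-#1, and 32 rose and 16 fell with shCTDP1-#2. In the 12488 intervals of the series that met the same limit, 35.2% rose and 31.3% fell with shCTDP1-#1, and 39.5% rose and 28% fell with shCTDP1-#2. All 6 knockdown libraries lay above all 3 shScr libraries in 49 of the 252 (19.4%) and below them in 9 (3.57%), where 27.9% and 18.2% of all tested intervals did so. The medians of members and paired longer intervals differed by 0.08 with shCTDP1-#1 and 0.09 with shCTDP1-#2, and by 0.01 and 0.09 when matched by classes of mean TPM in place of pairs. With shScr replicate 1 left out these differences turned to -0.03 and -0.005, so the order of the medians rests on that library and, with shCTDP1-#1, its size also on the matching.

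**Figure D3:**
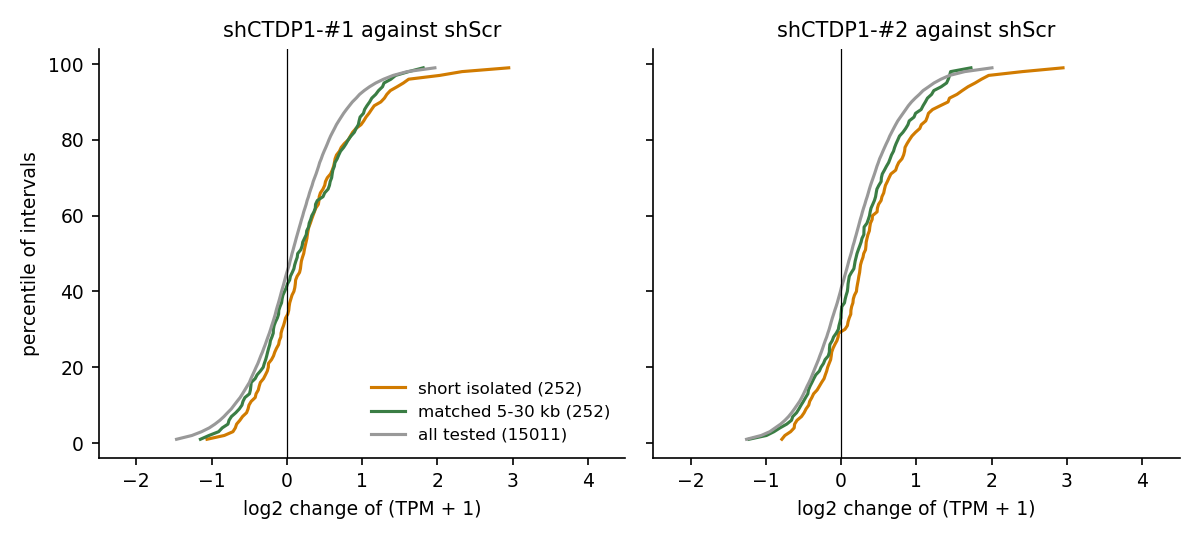
Percentiles 1 to 99 of the log2 change of (TPM + 1) against shScr in the 252 tested short isolated intervals, the 252 paired intervals of 5 to 30 kb and all 15011 tested intervals, for each hairpin. The curve of the short intervals lies to the right of that of all intervals, with medians of 0.22 and 0.30 against 0.07 and 0.13.

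Among the 73 members with a mean of at least 5 TPM, 16 rose with both hairpins with all 6 knockdown libraries above all shScr libraries, where 26.7% of all intervals of that level did. The 8 with the largest changes are given first. The mean includes the knockdown libraries, so members near 0 with shScr met the limit of 5 TPM through those. The interval on chromosome 6 from 34231088 to 34231450, of 363 bases, was at 0, 1.03 and 0 TPM with shScr, at 14.81, 10.74 and 15.19 TPM with shCTDP1-#1 and at 23.92, 22.45 and 19.71 TPM with shCTDP1-#2. It went from nearly silent to clearly present in every knockdown library, by 3.51 on the log2 scale with shCTDP1-#1 (SE 0.25, limma adjusted p = 8.2e-07) and by 4.18 with shCTDP1-#2 (SE 0.25, adjusted p = 2.3e-07). The nearest expressed interval, here one with a mean of at least 1 TPM, lay 13840 bases away and had log2 changes of 0.03 and 0.22.

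Another pair of intervals behaved alike. On chromosome 18 from 9473419 to 9474004, shScr gave 0.2, 0 and 0.23 TPM, shCTDP1-#1 12.74, 11.82 and 12.42 TPM and shCTDP1-#2 10.88, 9.84 and 11.15 TPM. On chromosome 12 from 80422673 to 80423411, shScr gave 0.29, 0 and 0.17 TPM, shCTDP1-#1 11.01, 11.8 and 10.5 TPM and shCTDP1-#2 10.57, 10.12 and 10.71 TPM. Both were near 0 in the control and about equal with both hairpins. Neither reached 1 TPM in a shScr library, so both entered the test only through the knockdown libraries. Their p-values are those of intervals that entered in this way. The chromosome 18 interval rose by 3.55 with shCTDP1-#1 (SE 0.11, limma adjusted p = 3.4e-09) and by 3.35 with shCTDP1-#2 (SE 0.11, adjusted p = 6.4e-09), and its nearest expressed interval, 1002 bases away, changes of 0.18 and 0.49. For the chromosome 12 interval the rise was 3.40 with shCTDP1-#1 (SE 0.12, adjusted p = 5.2e-09) and 3.32 with shCTDP1-#2 (SE 0.12, adjusted p = 8.4e-09). Its nearest expressed interval lay 88224 bases away and changed by 1.41 and 0.87.

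A further interval, on chromosome 5 from 32174577 to 32175378 was at 0.64, 0.4 and 0.59 TPM with shScr, at 8.37, 5.04 and 7.34 TPM with shCTDP1-#1 and at 7.72, 7.63 and 8.99 TPM with shCTDP1-#2. It too reached 1 TPM in no shScr library and entered the test only through the knockdown libraries. It lay 120 bases from an interval with a mean of 62.0 TPM, which fell by 0.21 and 0.13 on the log2 scale while the short interval rose by 2.34 with shCTDP1-#1 (SE 0.16, limma adjusted p = 7.1e-07) and 2.56 with shCTDP1-#2 (SE 0.16, adjusted p = 3.7e-07). On chromosome 9, the interval from 42751727 to 42752381 was at 2.66, 0 and 2.43 TPM with shScr, 7.04, 17.08 and 7.14 TPM with shCTDP1-#1 and 11.86, 12.47 and 14.85 TPM with shCTDP1-#2. The one from 69777099 to 69777953 was at 2.48, 5.19 and 3.82 TPM, then 13.57, 8.38 and 15 TPM, then 16.06, 8.1 and 17.49 TPM. Libraries of a group differed more in these chromosome 9 intervals than in those named before, with SEs of 0.51 and 0.31. On chromosome 8 from 134585426 to 134586104, the interval was at 1.87 to 2.76 TPM with shScr, 6.12 to 10.12 TPM with shCTDP1-#1 and 6.76 to 7.35 TPM with shCTDP1-#2, a log2 change of 1.47 (SE 0.16) and 1.31 (SE 0.16).

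The most abundant of the risen intervals was on chromosome 6 from 52860418 to 52860748, of 331 bases. It was at 43.01, 48.79 and 41.44 TPM with shScr, at 92.79, 131.86 and 123.28 TPM with shCTDP1-#1 and at 96.97, 150.73 and 119.26 TPM with shCTDP1-#2. All knockdown libraries stood far above the control range. The rise was 1.35 with shCTDP1-#1 (SE 0.17, limma adjusted p = 7.5e-05) and 1.42 with shCTDP1-#2 (SE 0.17, adjusted p = 5.4e-05), and the difference between the hairpins was 0.07 (SE 0.17, adjusted p = 0.76). Its nearest expressed interval, 241 bases away with a mean of 5.20 TPM, moved the other way, by -0.77 (adjusted p = 0.00021) and -0.44 (adjusted p = 0.0079).

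Of the same 73 members, 7 were lower in all 6 knockdown libraries and called with both hairpins, where 19.5% of all intervals of that level were. Called with both hairpins, whether or not the groups overlapped, were 17 higher and 8 lower members, and 19 and 10 of the 73 paired longer intervals. On chromosome 12 from 13028433 to 13029044, shScr gave 23.3, 24.6 and 28.8 TPM, shCTDP1-#1 11.14, 11.04 and 9.87 TPM and shCTDP1-#2 9.78, 13.39 and 10.39 TPM. Every knockdown library was far below the control range, at a log2 change of -1.18 with shCTDP1-#1 (SE 0.12, limma adjusted p = 9.4e-06) and -1.13 with shCTDP1-#2 (SE 0.12, adjusted p = 1.4e-05). The nearest expressed interval, 14671 bases away, rose by 1.16 and 0.54.

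On chromosome 5 from 69745463 to 69746180, shScr gave 10.95, 10.47 and 8.72 TPM, shCTDP1-#1 3, 3.72 and 3.81 TPM and shCTDP1-#2 5.35, 6.39 and 4.52 TPM. This interval was lower with shCTDP1-#1 than with shCTDP1-#2, by 0.50 (SE 0.14, limma adjusted p = 0.011). On chromosome 16 from 2204798 to 2205359, shScr gave 43.61, 29 and 40.81 TPM, shCTDP1-#1 20.37, 22.05 and 18.12 TPM and shCTDP1-#2 22.01, 22.41 and 25.16 TPM, log2 changes of -0.86 and -0.66 (SE 0.14). The intervals on chromosome 1 from 17012116 to 17012550, on chromosome 18 from 6462143 to 6463014 and on chromosome 9 from 14921335 to 14922332 had log2 changes of -1.03, -0.62 and -0.69 with shCTDP1-#1 and of -0.62, -0.59 and -0.42 with shCTDP1-#2. For the chromosome 18 interval, the adjusted p with shCTDP1-#2 was 0.015, and 0.053 without shScr replicate 2.

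**Figure D4:**
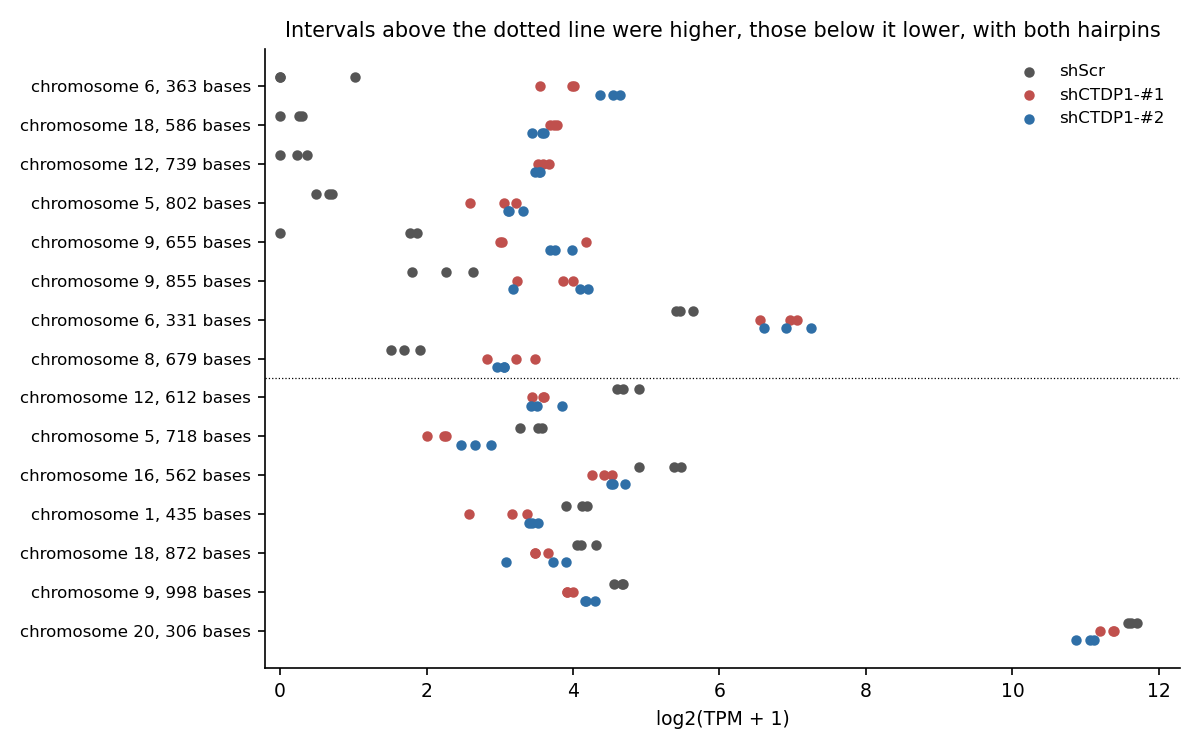
log2(TPM + 1) in each library for the 8 members with the largest rise with both hairpins (above the dotted line) and the 7 lower with both (below it), among members averaging 5 TPM or more. Each point is 1 library, coloured by hairpin; in every row the shScr points lie apart from all knockdown points, as the choice of the rows required.

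The summed TPM of the members was held by few intervals. The most abundant, on chromosome 20 from 21735866 to 21736171 and of 306 bases, was at 3068, 3159 and 3327 TPM with shScr, at 2683, 2652 and 2343 TPM with shCTDP1-#1 and at 1876, 2209 and 2142 TPM with shCTDP1-#2. It alone made up 57.8% to 58.0% of the members' TPM in the shScr libraries and 41.7% to 49.4% in the knockdown libraries. It fell by 0.32 with shCTDP1-#1 (SE 0.07, limma adjusted p = 0.002) and fell by 0.62 with shCTDP1-#2 (SE 0.07, adjusted p = 1.8e-05) on the log2 scale, and was lower with shCTDP1-#2 than with shCTDP1-#1 by 0.30 (adjusted p = 0.0036). The sum over all 668 members was 5501 ± 230 TPM with shScr (SD, n = 3), 5329 ± 183 TPM with shCTDP1-#1 and 4794 ± 257 TPM with shCTDP1-#2. Without the 3 most abundant members it was 1480 ± 35, 1758 ± 23 and 1904 ± 48 TPM, so the order of the groups was the opposite.

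Of the other 7 members of highest mean, the one at 52860418 on chromosome 6, described before, rose with both hairpins. The remaining 6 were called with at most 1 hairpin. On chromosome 10 from 122114177 to 122114718, the interval was at 571, 640 and 689 TPM with shScr, at 787, 854 and 801 TPM with shCTDP1-#1 and at 544, 598 and 617 TPM with shCTDP1-#2. It rose with shCTDP1-#1 by 0.37 (SE 0.07, limma adjusted p = 0.00089), and its shCTDP1-#2 libraries overlapped those of shScr (log2 change -0.11, adjusted p = 0.19; -0.24 and 0.017 after median-of-ratios scaling, and -0.18 and 0.024 without shScr replicate 1). The intervals on chromosome 21 from 20230097 to 20230594 and on chromosome 6 from 144416018 to 144416754 were at 190 to 211 and 154 to 169 TPM with shScr, at 190 to 209 and 157 to 160 TPM with shCTDP1-#1 and at 206 to 243 and 179 to 203 TPM with shCTDP1-#2. The chromosome 6 one rose with shCTDP1-#2 by 0.24 (SE 0.05, adjusted p = 0.0021), which after median-of-ratios scaling was 0.11 with an adjusted p of 0.12.

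On chromosome 1, the interval from 155112367 to 155113071 was at 45.06 to 52.29 TPM with shScr, 46.02 to 61.57 TPM with shCTDP1-#1 and 70.86 to 75.4 TPM with shCTDP1-#2, and rose with shCTDP1-#2 alone among the 2 tests against shScr (0.57, SE 0.10, limma adjusted p = 0.00052). The interval from 16133679 to 16134194 was at 52.65 to 64.43, 52.13 to 58.92 and 49.47 to 57.85 TPM, and the groups overlapped throughout. Its log2 change with shCTDP1-#2 was -0.12 (limma adjusted p = 0.22), and -0.25 (adjusted p = 0.02) after median-of-ratios scaling. On chromosome 17 from 19091329 to 19092027, the interval was at 99.89, 61.25 and 100.21 TPM with shScr, 66.97, 92.96 and 106.15 TPM with shCTDP1-#1 and 34.2, 79.8 and 72.04 TPM with shCTDP1-#2. Its libraries differed widely within a group. The log2 changes were 0.04 with shCTDP1-#1 and -0.54 with shCTDP1-#2 (SE 0.37), and neither passed (limma adjusted p = 0.94 and 0.24). Whether reads of these intervals are shared with near-identical copies elsewhere was not tested, since no sequence of the hg19 build was used here; such levels are uncertain.

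The smallest changes among members with a mean of at least 5 TPM included, beside that at 16133679, 2 others whose groups overlapped. On chromosome 2 from 172373749 to 172374232 the level was at 4.51 to 7.07, 4.66 to 5.95 and 3.99 to 6.69 TPM in the 3 groups. The one on chromosome 16 from 61089303 to 61089868 was at 17.41 to 18.2, 14.99 to 21.92 and 14.56 to 18 TPM. The latter lay 2321041 bases from the nearest expressed interval, and only the interval on chromosome 2 from 78639919 to 78640220, at 2701803 bases, was farther among the tested members. That interval was at 4.63, 4.93 and 3.52 TPM with shScr, at 6.43, 0.97 and 5.05 TPM with shCTDP1-#1 and at 7.64, 5.89 and 6.95 TPM with shCTDP1-#2, and passed neither test. Its adjusted p with shCTDP1-#2 (limma) was 0.26, and 0.0085 without shCTDP1-#1 replicate 2, which changes only the estimate of the spread. The next farthest tested member, on chromosome 11 from 49455025 to 49455990, lay 1265354 bases away and passed neither test as well.

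Distance to the nearest expressed interval went with the share of members that rose. With shCTDP1-#2, 33 of the 61 tested members less than 1 kb from an expressed interval rose (54.1%), 20 of 53 at 1 to 5 kb (37.7%), 14 of 48 at 5 to 20 kb (29.2%), 8 of 52 at 20 to 100 kb (15.4%) and 5 of 38 at 100 kb or more (13.2%). The median log2 changes in the same order were 0.61, 0.37, 0.25, 0.09 and 0.15. With shCTDP1-#1 the shares were 36.1%, 26.4%, 31.2%, 21.2% and 21.1%, a shallower course, with medians of 0.30, 0.34, 0.31, 0.03 and 0.23. Of all tested intervals, whatever their distance, 39.5% rose with shCTDP1-#2 and 35.4% with shCTDP1-#1. Members under 1 kb were thus above that share with shCTDP1-#2 and near it with shCTDP1-#1. Those at 20 kb or more were below it with both hairpins. The paired longer intervals showed no such order with shCTDP1-#2: 51.0%, 28.6%, 47.9%, 29.1% and 38.5% of them rose. With shCTDP1-#1 their shares were 45.1%, 26.5%, 36.6%, 36.4% and 42.3%. Between the hairpins, 15 of the 61 nearest members were higher with shCTDP1-#2 (24.6%) and 2 lower, against 6 and 7 of the 38 farthest. In the paired longer intervals these were 8 and 7 of the 51 nearest, and 5 and 2 of the 26 farthest. Of all tested intervals, 30.2% were higher and 20% lower in this contrast.

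The distance classes were not alike in other ways. The median of the members' mean was 2.66, 1.65, 2.01, 1.96 and 4.03 TPM from the nearest to the farthest class, and their median SD within groups 0.28, 0.31, 0.35, 0.34 and 0.33; the part of these in the trend was not tested. Among the members with at least 1 TPM in all 9 libraries, the shares that rose with shCTDP1-#2 were 46.4%, 42.1%, 35.3%, 13.6% and 9.52%, from 28, 19, 17, 22 and 21 members. Of the 12488 intervals of the series that met this limit, 39.5% rose. Detection over all 668 members, tested or not, was highest in the nearest class in every group. Its gain over shScr was not graded by distance in the way the shares that rose were. With shScr, 73.3%, 64.1%, 61.9%, 60.2% and 66.7% of values were above 0 from the nearest to the farthest class. With shCTDP1-#1 the shares were 84.2%, 78.5%, 72.5%, 72.7% and 69.7%, and with shCTDP1-#2 87.4%, 78.5%, 76.0%, 72.7% and 70.3%. The gain was thus of similar size in the 4 classes under 100 kb and smaller in the farthest, a difference that was not tested. In the 116 members of the nearest class, 83 to 87 were above 0 per shScr library and 94 to 107 per knockdown library, with no overlap. The ranges were also apart at 1 to 5 kb (91 to 94 and 102 to 119) and at 20 to 100 kb (79 to 92 and 97 to 112). At 5 to 20 kb the ranges were 87 to 99 and 98 to 120 and overlapped. In the 111 members of the farthest class they were 71 to 77 and 72 to 81 and overlapped.

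**Figure D5:**
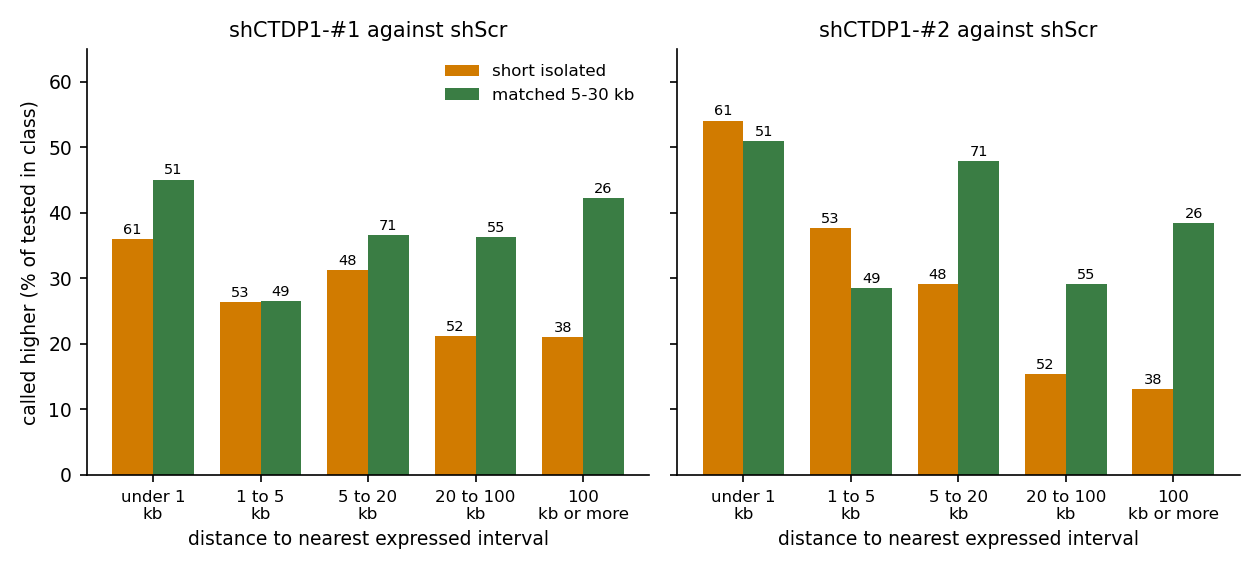
Share of tested intervals called higher than shScr (bars, from 0) by distance to the nearest interval with a mean of at least 1 TPM, for short isolated intervals and the paired intervals of 5 to 30 kb, with the number of intervals above each bar. With shCTDP1-#2 the short intervals run from 54.1% under 1 kb to 13.2% at 100 kb or more, where 39.5% of all tested intervals were called higher.

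The neighbours' own changes were only loosely tied to those of the short intervals. The 252 tested members had 247 different nearest expressed intervals. Of the 87 members called with shCTDP1-#1, 34 had a neighbour called in the same direction, 29 in the opposite direction and 24 a neighbour that was not called or not tested. With shCTDP1-#2 these numbers were 47, 23 and 28 of 98. In the paired longer intervals they were 60, 38 and 41 of 139 with shCTDP1-#1, and 57, 43 and 41 of 141 with shCTDP1-#2. Across the 252 pairs, which share libraries and are not independent replicates, the log2 changes of member and neighbour correlated at a Pearson r of 0.07 with shCTDP1-#1 and 0.08 with shCTDP1-#2 (Spearman 0.09 in both). For the paired longer intervals and their neighbours r was 0.17 and 0.13. In the 53 members 1 to 5 kb from their neighbour r was 0.15 and 0.27. There the neighbour was called in the same direction for 8 of 17 called members with shCTDP1-#1 and 14 of 24 with shCTDP1-#2, and in the opposite direction for 5 and 3. In the 61 pairs under 1 kb apart r was 0.17 and 0.02, and the median change of those neighbours was 0.01 and 0.16, against 0.30 and 0.61 of the members. In 40 and 44 of the 61 pairs the member's change was the larger of both. For the paired longer intervals at that distance, the interval's change was the larger in 34 and 32 of 51. Their medians were 0.38 and 0.37, against 0.11 and 0.25 of their neighbours, so the pattern was not particular to short intervals. The files give no strand, so members before the start and after the end of a neighbour cannot be told apart.

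Within 1 kb of an expressed interval, 18 of the 61 tested members rose with both hairpins (29.5%), near the 26.4% of all tested intervals, and 18 of the 51 paired longer intervals at that distance did. Among them, one on chromosome 7 from 143076785 to 143077588, 584 bases away, had log2 changes of 1.29 and 1.76, and its neighbour of 0.05 and -0.39. Another, on chromosome 22 from 47157791 to 47158460 and 57 bases away, had changes of 0.61 and 1.44, and its neighbour of 0.01 and 0.05. One more, on chromosome 3 from 196669494 to 196670411 and 25 bases away, was the second most abundant of these, at 30.1 to 34.7 TPM with shScr, 38.4 to 44.08 TPM with shCTDP1-#1 and 58.66 to 64.96 TPM with shCTDP1-#2. These 3 were chosen after their values were seen. The 3 tested members nearest of all to an expressed interval, at 6, 12 and 13 bases, lay on chromosome 6 from 149912891 to 149913799, chromosome 14 from 99439216 to 99439638 and chromosome 5 from 133340838 to 133341253. None of these 3 was called against shScr. With shCTDP1-#2 each passed the threshold in at least 1 alternative: the chromosome 14 interval (log2 change -0.59, limma adjusted p = 0.052) had 0.025 after median-of-ratios and 0.035 after upper-quartile scaling, 0.0095 with the replicate block, and 0.028, 0.018 and 0.048 without shCTDP1-#1 replicate 1, shCTDP1-#1 replicate 2 and shCTDP1-#2 replicate 2. The chromosome 5 interval (adjusted p = 0.18) had 0.036 with the replicate block and 0.044 without shScr replicate 2. The chromosome 6 interval (adjusted p = 0.92) had 0.04 without shCTDP1-#2 replicate 3.

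Few members were silent in the control and present throughout the knockdown. Of the 96 members at 0 in all shScr libraries, which entered through knockdown libraries alone, 7 were above 0 in all 6 knockdown libraries. They are 1.05% of the 668 members, of which 226 were above 0 in all 9 libraries. Of the 668 paired longer intervals, 77 were at 0 in all shScr libraries. How many of those, or of all intervals, were above 0 in all 6 is not given here. The most abundant of the 7, on chromosome 10 from 3810107 to 3810943, was at 3.32, 1.74 and 7.61 TPM with shCTDP1-#1 and 4.32, 0.89 and 1.58 TPM with shCTDP1-#2. The one on chromosome 6 from 86369610 to 86370324 was at 1.72, 0.9 and 2.07 TPM and 2.03, 2.38 and 3.06 TPM. The other 5 had means of 0.152 to 0.818 TPM. No fold change is given for these 7, since a control at 0 sets no base for one.

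The hairpins differed from each other in fewer members than either did from shScr. With shCTDP1-#2, 41 of the 252 members were higher and 22 lower than with shCTDP1-#1, 25% of them, where 50.2% of all tested intervals were called, 30.2% higher and 20% lower. On chromosome 2 from 96305929 to 96306352, the interval was at 7.22, 5.38 and 7.25 TPM with shScr, at 13.06, 27.73 and 15.99 TPM with shCTDP1-#1 and at 6.91, 7.38 and 7.53 TPM with shCTDP1-#2. It stood out with shCTDP1-#1, 1.20 on the log2 scale above shCTDP1-#2 (limma adjusted p = 0.0011). The interval on chromosome 6 from 42858005 to 42858554 was at 14.96, 14.06 and 18.68 TPM with shScr, 15.12, 13.09 and 10.42 TPM with shCTDP1-#1 and 25.69, 28.31 and 27.65 TPM with shCTDP1-#2. All its shCTDP1-#2 libraries lay above all others, and its nearest expressed interval, 341 bases away, fell with both hairpins, by 0.87 and 0.19. On chromosome 20 from 4004552 to 4005091, the interval was at 6.75 to 10.42, 9.5 to 11.19 and 16.17 to 30.07 TPM in the 3 groups and rose with shCTDP1-#2 by 1.15 (SE 0.21, adjusted p = 0.00084).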

How the data were processed

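RNA of 9 MDA-MB-231 libraries was sequenced. STAR, RSEM and hg19 are named in the submitters' processing notes; versions and annotation are not given in the sources used here. The values the authors deposited are TPM with 2 decimals, 1 file per library. Files were joined on their coordinates, and rows with the same interval as another (2246 of 57773) were used only as neighbours. Starts count from 1. Those reaching 1 TPM in 3 or more libraries were fitted as log2(TPM + 1) with limma 3.58.1 in R 4.3.3 (group means, trend and robust options, all 9 libraries, 6 residual degrees of freedom). P-values were adjusted by Benjamini-Hochberg over the 15011 tested intervals, and the fit was tested on simulated data. Fold changes on this scale understate changes at low level. Distance is the number of bases between interval ends. The 252 tested pairs differed in mean TPM by at most 0.75 on the log2 scale, by over 0.1 in 11 pairs. Named intervals were the 8 highest and lowest changes called with both hairpins (mean at least 5 TPM, groups apart), the 8 of highest mean, and 3 each with the largest difference between hairpins, the smallest change, and the smallest and largest distance. Members, lists and tests were chosen with earlier results of these data known. No sequence of hg19 was used here. Alternatives were pseudocount, filter, scaling, matching, the neighbour's minimum, the replicate block and each library left out.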

Additional observations from a re-analysis of the deposited data

Results flagged for a closer look

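Some members responded unequally to the hairpins by the limma contrast of shCTDP1-#2 with shCTDP1-#1, adjusted over all tested intervals. Higher values with shCTDP1-#2 were called in 41 short isolated intervals, and lower values in 22. The most unequal with a mean of 5 TPM or more lay on chromosome 2 from 96305929, with -1.20 on the log2 scale, on chromosome 6 from 42858005, with 1.04, and on chromosome 20 from 4004552, with 0.94. Single outlying libraries were not looked for, since groups of 3 are too small for that.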

How the results depend on the processing

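Counts of called members stayed within 1.5 times their value under the other pseudocount, filter and scalings. Without the filter, however, they were out of 668 members in place of 252, so the shares called were lower. Of the 668, 94 were higher with shCTDP1-#1, 119 with shCTDP1-#2 and 52 with both. When single libraries were left out, the members higher with shCTDP1-#1 numbered 62 to 73 and those lower 11 to 18, the fewest being 11 without shCTDP1-#1 replicate 3. For shCTDP1-#2 the ranges were 71 to 82 higher, 14 to 22 lower. For the contrast of the hairpins they were 31 to 46 higher, 13 to 23 lower, the fewest being 13 without shCTDP1-#1 replicate 2. Calls shared by both hairpins ran from 39 to 48 (higher) and 7 to 9 (lower). The difference of the medians of members and paired longer intervals ran from -0.0293 to 0.139 for shCTDP1-#1, from -0.005 to 0.116 for shCTDP1-#2, and from -0.008 to 0.0883 for the contrast of the hairpins. It was below 0 without shScr replicate 1 (-0.0293 and -0.005) and, for the last contrast, without shCTDP1-#2 replicate 2 (-0.008); the cause was not tested. For shCTDP1-#2 it was 0.0891, and became 0.15 with a pseudocount of 0.1 TPM, 0.0785 after upper-quartile and 0.0741 after median-of-ratios scaling.

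At 1 TPM or more, in place of above 0, the groups had 171, 217 and 236 members; without the 3 most abundant members the sums were 1480, 1758 and 1904 TPM, as both choices count less by construction. The shares that rose against shScr by distance, and those by neighbour, stayed within their binomial intervals with neighbours of at least 5 TPM. Those by distance also did so in the alternatives chosen after seeing the data (median-of-ratios scaling, without shScr replicate 1, members with at least 1 TPM in all 9 libraries). These intervals are wide, as 40.8% to 66.9% under 1 kb with shCTDP1-#2, and treat members of the same libraries as independent. The alternatives reuse many of the same members and libraries, so staying within the intervals says little. Between the hairpins, 17% of members at 1 to 5 kb were higher with shCTDP1-#2, and 36.8% of those with at least 1 TPM in all 9 libraries. Matching by classes of mean TPM gave 0.014, 0.0892 and 0.0813 for the differences of medians. Replicate numbers recur in each group. Over the 9 library pairs of equal number, the residual correlation ran from -0.01 to 0.05. For pairs of unequal number the range was -0.05 to 0.02, slightly lower but overlapping. With groups of 3 these ranges cannot decide whether libraries of equal number were prepared together, which was not tested. With the replicate block the calls were 72 higher, 20 lower (shCTDP1-#1), 85 higher, 20 lower (shCTDP1-#2), 42 higher, 24 lower (contrast of the hairpins) and 48 higher, 9 lower (both hairpins).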
